A study of Mus musculus with 6 samples.

Results

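The VEGF family genes described here are 9 rows of a mouse gene count table, found by symbol among its 52636 Ensembl identifiers: the receptors Kdr, Flt1 and Flt4, the neuropilins Nrp1 and Nrp2, and the ligands Vegfa, Vegfb, Vegfc and Pgf. RNA sequencing had been done on endothelial cells cultured from mouse brain. The 2 groups were 3 libraries of genotype Wild Type Control and 3 of genotype Erg and Fli1 double knockout, called control and knockout below. Both groups had received 4-OHT, which induces the gene deletion, and live cells carrying CD31 and VE-cadherin on their surface and lacking CD45 had been sorted. How the deletion was targeted, the age of the mice and whether animals were pooled were not given in the sources used here. The labels do not say that libraries of a group came from separate cultures, so a p-value measures the spread between these 6 libraries only. Each group held libraries of both sexes by Xist and Y-linked transcripts, so its libraries were not all repeats of 1 source. Between libraries of the same sex the spread may be technical.

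VEGF ligands are secreted dimers that bind receptor tyrosine kinases on endothelial cells. Kdr encodes VEGFR2, the main signalling receptor for VEGF-A, and Flt1 encodes VEGFR1, which binds VEGF-A, VEGF-B and placental growth factor tightly but signals weakly and can hold ligand away from VEGFR2. Flt4 encodes VEGFR3, the receptor for VEGF-C, best known from lymphatic vessels and angiogenic sprouts. Neuropilins have no kinase domain and act as co-receptors, both for VEGF forms and for most class 3 semaphorins, which guide axons and vessels.

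Erg, one of the deleted genes, had 656, 223 and 610 CPM in controls 1, 2 and 3 and 70.2, 88.3 and 109 CPM in knockouts 1, 2 and 3 (CPM are counts scaled to a common library size). Fli1 had 82.9, 64.1 and 92.1 CPM in the controls and 57.04, 68.5 and 66.7 CPM in the knockouts, so its groups overlapped through control 2. The log2 fold changes were -2.48 for Erg and -0.32 for Fli1 (edgeR adjusted p = 0.0137 and 0.181), and the Erg call was lost without control 3 or any 1 knockout library (up to 0.0691). Without control 2 the log2 fold changes were -2.86 for Erg and -0.48 for Fli1 (edgeR adjusted p = 2.26e-05 and 0.00346). Counts cover whole genes, so any transcripts that lack only deleted exons would be included, and whether such transcripts occur was not tested. Library totals were 17274639 to 19410458 counts. Control 2 stood apart: 12 fibroblast markers summed to 14713 CPM in it, against 485 and 1289.6 CPM in controls 1 and 3 and 1671 to 2902 CPM in the knockouts, and 12 pericyte and smooth muscle markers to 4306 CPM, against 477 and 592 CPM and 783 to 1577 CPM. The 12 endothelial markers, which include Erg, summed to 7181 CPM in control 2, 17213 and 17060 CPM in controls 1 and 3, and 3707 to 4599 CPM in the knockouts. Control 2 also held the highest sums of astrocyte, microglia and leukocyte, and neuron markers (321, 164 and 98.6 CPM), although Gfap, Aqp4, Ptprc, Aif1 and Rbfox3 stayed under 1 CPM in every library; 8 oligodendrocyte markers summed to 42.3 CPM in it, within the 25.2 to 75.7 CPM of the others. Of the 12 endothelial markers 11 were called lower, and 1 fibroblast marker of 12 was called higher (Pdgfra). Of all tested genes 11.7% were called lower and 13.1% higher. Of the other marker lists, Abcc9 (pericyte), Gja1 (astrocyte) and Cnp (oligodendrocyte) were called lower and Mbp (oligodendrocyte) higher. With control 2 left out, all 12 endothelial markers were called lower. Fibroblast markers then had 4 higher and 1 lower of 12, and pericyte and smooth muscle markers likewise. Astrocyte markers had 2 higher and 2 lower of 5 tested, and neuron markers 1 higher of 3 tested. The shares of all tested genes were then 25.5% higher and 24.8% lower. The most abundant genes of these 7 lists were Cdh5, Col1a1, Acta2, Gja1, Tmem119, Tubb3 and Cnp. In control 2, Gja1, Tmem119 and Tubb3 had 294, 160 and 64.1 CPM. They made up most of its astrocyte, microglia and leukocyte, and neuron sums. By Xist and Y-linked transcripts, controls 1 and 3 and knockout 1 were male, and control 2 and knockouts 2 and 3 female.

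All 9 genes passed the filter on low counts and were among 13901 genes tested with edgeR's quasi-likelihood test. A gene was called at a Benjamini-Hochberg adjusted p under 0.05 over all tested genes. The family did not move in 1 direction: Kdr, Flt1, Flt4 and Pgf fell, and Nrp1, Nrp2, Vegfb and Vegfc rose, while Vegfa did not pass. Calls thus covered 8 of 9 members, beside 24.7% of all tested genes. Of these calls 4 were higher, beside 13.1%, and 4 lower, beside 11.7%. The ligand gene Vegfd, given below with another list, is not among the 9 and was not called (edgeR adjusted p = 0.802). The same 8 members had groups that did not overlap, which held for 46.3% of all tested genes (25.0% higher, 21.3% lower). An exact two-sided permutation test of the CPM values gave p = 0.1, the smallest that 3 against 3 libraries allow, for each of these 8 and p = 1 for Vegfa. The median absolute log2 fold change was 1.66 for the members and 0.30 for all tested genes. Without control 2, 9 of 9 members were called, beside 50.3% of tested genes, 5 higher beside 25.5% and 4 lower beside 24.8%. Scaling changed the split of all calls, 1816 higher and 1621 lower with TMM factors against 2501 and 1268 with library size alone, but each of the 8 member calls kept its direction and its call under every scaling tried.

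**Figure D1:**
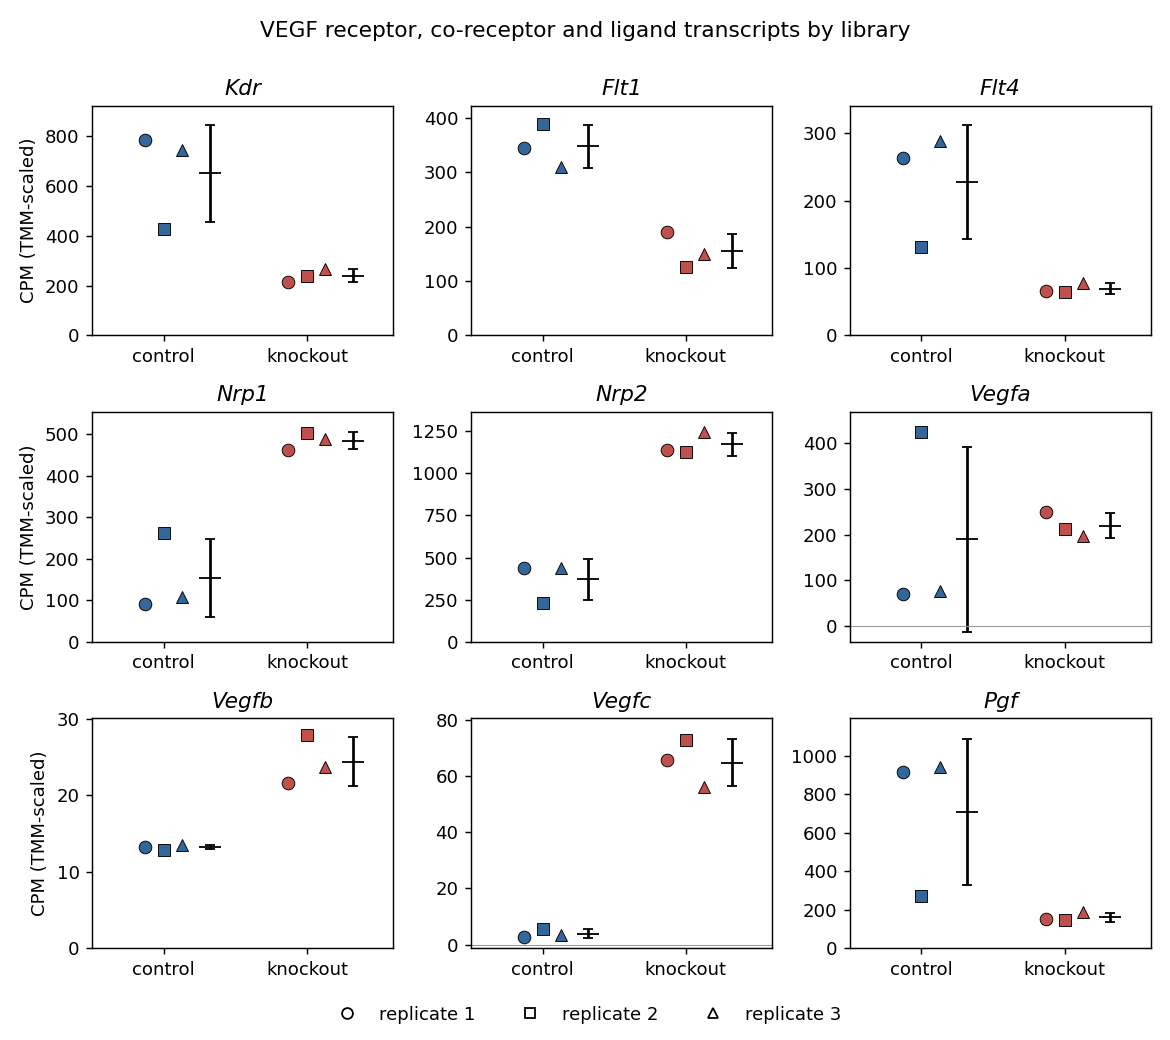
Level of each gene in CPM (vertical axis, linear, a scale per panel) in the 3 control and 3 knockout libraries, with the mean and SD beside each group. Squares are replicate 2; the control square, control 2, lies between controls 1 and 3 and the knockouts for Kdr, Flt4, Nrp1, Vegfc and Pgf and above all other libraries for Vegfa.

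The 3 receptor tyrosine kinase genes fell together. Kdr (ENSMUSG00000062960; GRCm38 chromosome 5, 75932827 to 75978458, minus strand) had 783, 426 and 744 CPM in controls 1, 2 and 3 and 215, 238 and 268 CPM in knockouts 1, 2 and 3. All knockouts lay below all controls, and control 2 lay between the other controls and the knockouts. The means were 651 ± 196 and 240.07 ± 26.7 CPM (SD, n = 3 libraries), and the log2 fold change was -1.44 (standard error 0.25, edgeR adjusted p = 0.0126). Flt1 (ENSMUSG00000029648; chromosome 5, 147561604 to 147726011, minus strand) had 346, 389 and 309 CPM in the controls and 190.02, 127 and 149 CPM in the knockouts. Control 2 had the highest Flt1 level of the 6 libraries, unlike its Kdr level. The log2 fold change of Flt1 was -1.16 (standard error 0.17, edgeR adjusted p = 0.00808). Flt4 (ENSMUSG00000020357; chromosome 11, 49609263 to 49652739, plus strand) had 263, 131 and 288 CPM in the controls and 65.6, 64.2 and 78.4 CPM in the knockouts. Its groups did not overlap, the knockout mean was 30.5% of the control mean, and the log2 fold change was -1.71 (standard error 0.31, edgeR adjusted p = 0.0137). Gene counts do not separate the membrane-bound form of VEGFR1 from its soluble form, which both come from Flt1.

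Without control 2 the log2 fold changes of Kdr, Flt1 and Flt4 were -1.70, -1.11 and -2.02 (edgeR adjusted p = 1.88e-05, 0.00119 and 1.12e-05). Leaving out 1 other library ended the Kdr call for control 3, knockout 1 and knockout 2 (edgeR adjusted p up to 0.0644) and the Flt4 call for each knockout library (up to 0.0696), whereas Flt1 stayed called (up to 0.0446). In bulk RNA of this kind, fewer cells with a transcript and less of it per cell cannot be told apart. The summed endothelial markers were lower in the knockouts as well. Eng was the only 1 of 12 not called lower, where 11.7% of all tested genes were called lower. The part of the endothelial markers in the fall of the receptors was not tested.

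The neuropilin genes rose, in the opposite direction to the receptor kinases. Nrp1 (ENSMUSG00000025810; chromosome 8, 128358604 to 128503363, plus strand) had 90.04, 262 and 108 CPM in controls 1, 2 and 3 and 462, 502 and 489 CPM in the knockouts. Nrp2 (ENSMUSG00000025969; chromosome 1, 62703285 to 62818695, plus strand) had 439, 230.4 and 440.25 CPM in the controls and 1142, 1126 and 1248 CPM in the knockouts. Every knockout exceeded every control for both genes, and control 2 had the highest control level of Nrp1 but the lowest of Nrp2. The means of Nrp1 were 153 ± 94.2 and 485 ± 20.4 CPM (SD, n = 3), a log2 fold change of 1.66 (standard error 0.42, edgeR adjusted p = 0.0381). For Nrp2 the means were 369.8 ± 121 and 1172 ± 66.7 CPM, and the log2 fold change was likewise 1.66 (standard error 0.27, edgeR adjusted p = 0.00982). Without control 2 these became 2.25 and 1.38 (edgeR adjusted p = 6.15e-06 and 1.31e-05). The Nrp1 call was lost without any 1 of the other 5 libraries (edgeR adjusted p 0.0796 to 0.118), and the Nrp2 call was kept (up to 0.0457). The part of fibroblast and mural cell transcripts in the neuropilin levels was not tested.

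Among the ligands, Vegfc rose furthest. VEGF-C is the ligand of VEGFR3 and drives lymphatic growth. Vegfc (ENSMUSG00000031520; chromosome 8, 54077606 to 54187096, plus strand) had 2.63, 5.61 and 3.34 CPM in the controls, from 50 to 103 counts, and 65.7, 72.8 and 56.2 CPM in the knockouts, from 1009 to 1304 counts. No knockout library came near the control range, and the ratio of the means was 16.8. Control 2 had the highest Vegfc level of the controls, and the part of fibroblast and mural cell transcripts in the Vegfc levels was not tested. The log2 fold change was 4.07 (standard error 0.31, edgeR adjusted p = 0.00163), which ranked 71 from the highest of 13901 tested genes, and it was 3.85 to 4.41 without any 1 library. Vegfb (ENSMUSG00000024962; chromosome 19, 6982473 to 6987651, minus strand), whose product binds VEGFR1 and neuropilin 1, had 13.3, 12.9 and 13.5 CPM in the controls and 21.7, 27.9 and 23.7 CPM in the knockouts. Its controls were the most alike of any member, with an SD of 2.21% of the mean, and control 2 against the mean of controls 1 and 3 was -0.05 on the log2 scale. The log2 fold change of Vegfb was 0.89 (standard error 0.11, edgeR adjusted p = 0.00553).

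Pgf, encoding placental growth factor, a ligand of VEGFR1, was the ligand gene that fell. Pgf (ENSMUSG00000004791; chromosome 12, 85166635 to 85177790, minus strand) had 915, 272 and 944 CPM in controls 1, 2 and 3 and 149, 143 and 188 CPM in the knockouts. Control 2 was much closer to the knockouts than to the other controls, but the groups did not overlap. The log2 fold change was -2.15 (standard error 0.48, edgeR adjusted p = 0.0273), and -2.57 without control 2 (edgeR adjusted p = 1.05e-05). The call was lost without any 1 of the other 5 libraries (edgeR adjusted p 0.0796 to 0.112) and when the sex of the cells was added to the model (log2 fold change -1.68, edgeR adjusted p = 0.0833).

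Vegfa, the ligand of both VEGFR1 and VEGFR2, did not pass the test, and its controls spread over the widest range of the 9 members relative to their mean (SD 107% of the mean). Vegfa (ENSMUSG00000023951; chromosome 17, 46016993 to 46032369, minus strand) had 69.8, 424 and 75.9 CPM in controls 1, 2 and 3 and 250.2, 211 and 196 CPM in the knockouts. The knockouts thus lay above controls 1 and 3 and below control 2. With all libraries the log2 fold change was 0.21 (standard error 0.74, edgeR adjusted p = 0.863), and without control 2 it was 1.56 (standard error 0.11, edgeR adjusted p = 4.68e-05). Within the male libraries the knockout was higher by 1.78 on the log2 scale (1 knockout, 2 controls), and within the female libraries the value was -1.06 (2 knockouts against control 2). Control 2 is the only female control, so sex and that library cannot be told apart, and the part of the fibroblast and mural cell transcripts of control 2 in its Vegfa level was not tested. Splice forms of Vegfa are summed in these counts.

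**Figure D2:**
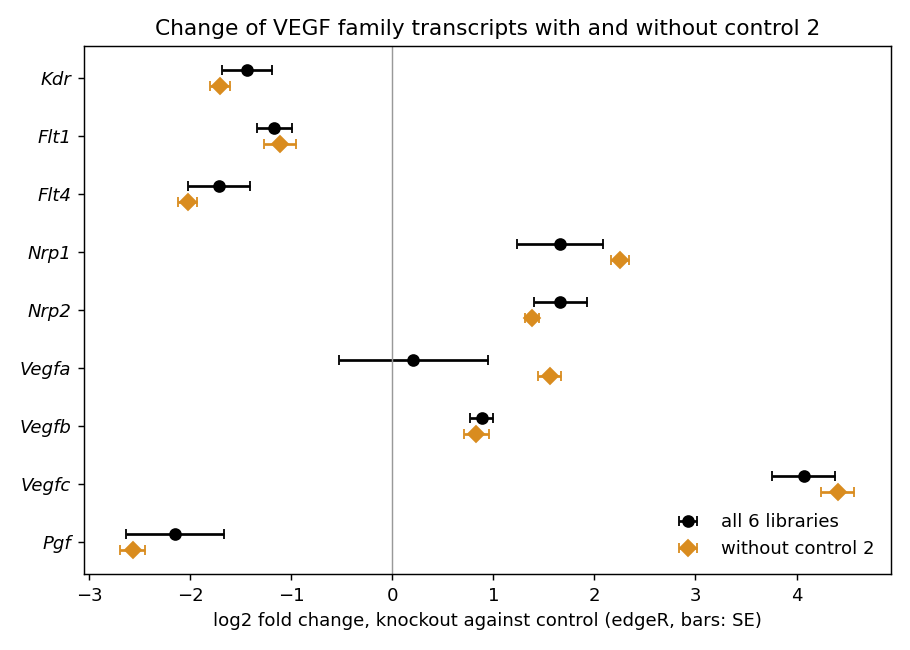
Log2 fold change of each gene, knockout against control, with its SE (horizontal axis), from all 6 libraries (black) and without control 2 (orange). Vegfa moves from 0.21 to 1.56 and Nrp1 from 1.66 to 2.25, while Flt1 goes from -1.16 to -1.11 and Vegfb from 0.89 to 0.83.

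The sequences before the start sites of 2 genes that fell and 2 that rose are shown because Erg and Fli1 proteins bind DNA at a GGAA core. Each is the 250 bases before a RefSeq start (GRCm38.p6), written 5′ to 3′ on the gene's strand, with every GGAA, or TTCC for the other strand, in capitals.
Kdr, chr5:75978456-75978705, minus strand: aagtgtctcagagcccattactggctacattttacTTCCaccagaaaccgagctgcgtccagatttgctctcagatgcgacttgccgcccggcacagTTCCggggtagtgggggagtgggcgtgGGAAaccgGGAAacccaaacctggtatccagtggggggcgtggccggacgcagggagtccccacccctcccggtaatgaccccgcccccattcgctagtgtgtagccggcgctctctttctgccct
Flt1, chr5:147726012-147726261, minus strand: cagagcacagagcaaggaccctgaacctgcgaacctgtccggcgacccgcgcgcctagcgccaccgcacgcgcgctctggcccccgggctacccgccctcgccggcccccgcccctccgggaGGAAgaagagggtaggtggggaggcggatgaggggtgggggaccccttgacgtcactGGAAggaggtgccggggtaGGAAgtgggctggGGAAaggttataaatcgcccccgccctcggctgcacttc
Vegfb, chr19:6987652-6987901, minus strand: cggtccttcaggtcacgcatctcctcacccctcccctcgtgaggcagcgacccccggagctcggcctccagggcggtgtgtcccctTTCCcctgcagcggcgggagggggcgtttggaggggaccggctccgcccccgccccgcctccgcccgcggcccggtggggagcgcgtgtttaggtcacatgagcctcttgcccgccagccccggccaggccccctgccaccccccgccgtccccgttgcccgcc
Vegfc, chr8:54077282-54077531, plus strand: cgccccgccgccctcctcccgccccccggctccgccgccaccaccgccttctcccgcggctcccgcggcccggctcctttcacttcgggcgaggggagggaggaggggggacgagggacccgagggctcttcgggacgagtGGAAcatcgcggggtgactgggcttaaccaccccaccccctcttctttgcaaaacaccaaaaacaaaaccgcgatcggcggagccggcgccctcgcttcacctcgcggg
The Kdr window held 4 matches, with first bases at -215, -153, -126 and -118 from the start, and the Flt1 window 4, at -128, -71, -52 and -39. Vegfb had 1 match at -164 and Vegfc 1 at -109. A core of this length is common: 93.4% of all 32851 RefSeq windows of this size hold it at least once, with a median of 3 matches, and 82.0% hold 4 or fewer. The longer form GGAAGT, which contains the core, was searched on both strands and occurred once each in the Kdr and Flt1 windows, in none of the other 7, and in 19.7% of all windows. ACGTG, a core bound by hypoxia-inducible factors, was found in none of the 9 windows and in 16.6% of all. Of the windows not shown, Vegfa held 6 GGAA matches. Nrp1 and Nrp2, which rose, had 4 and 1, and Flt4 and Pgf, which fell, had 2 and 0. However, the windows of Flt4, Nrp1 and Pgf end 416 to 477 bases inside the GENCODE gene. A match describes letters in this window and is not a binding site.

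Levels of different genes were compared per kilobase of annotated exon. In the controls Pgf was highest at 245 ± 131 CPM per kb, its lowest library (93.7) above the highest of Kdr (86.7). Kdr followed at 72.1 ± 21.7, and then Vegfa, Nrp2, Flt4, Flt1 and Nrp1 at means of 44.3 to 15.7, each overlapping its neighbour in the order. Vegfb at 8.24 ± 0.18 and Vegfc at 1.58 ± 0.63 CPM per kb came last, with no overlap. In the knockouts Nrp2 led at 98.97 ± 5.63 CPM per kb, above Pgf (55.2 ± 8.42), Vegfa (51.2 ± 6.49) and Nrp1 (49.5 ± 2.08), which overlapped. Kdr and Vegfc then stood level at 26.6 ± 2.96 and 26.5 ± 3.39 CPM per kb, where in the controls they had been the second and the last in the order. Vegfb, Flt1 and Flt4 were lowest, at 15.2, 11.5 and 8.43 CPM per kb.

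**Figure D3:**
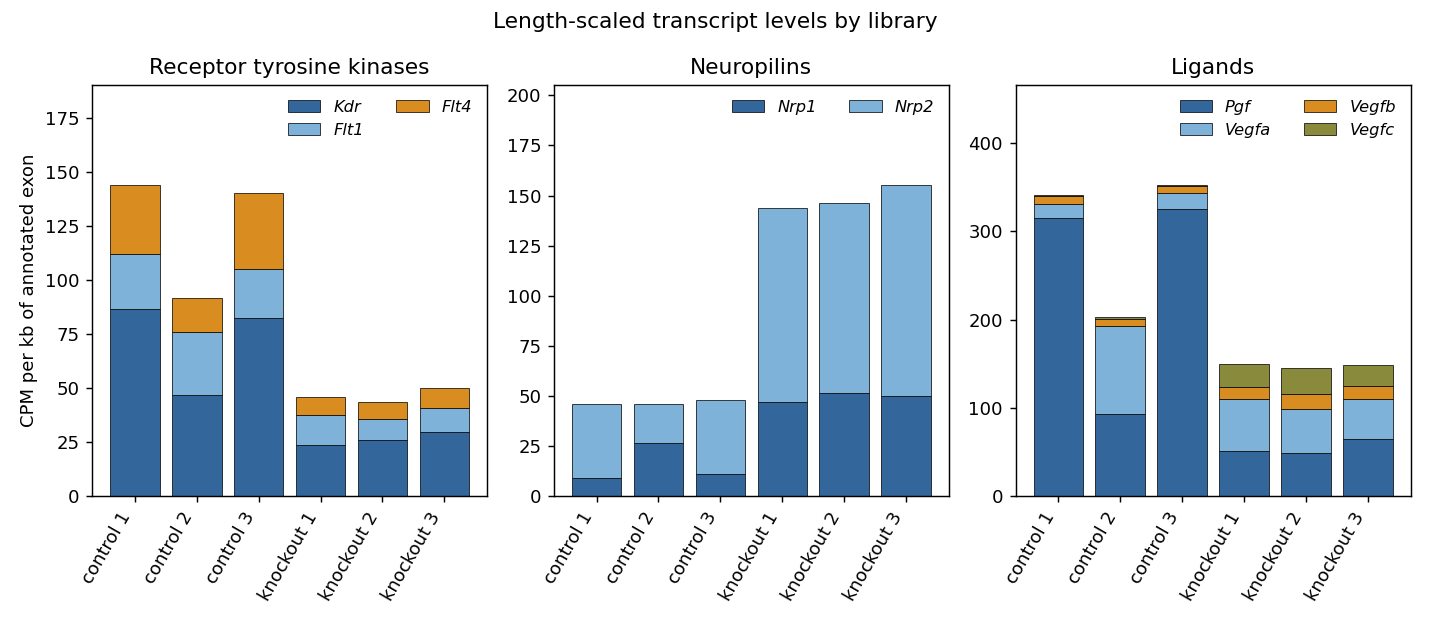
Length-scaled level (CPM per kb of annotated exon, stacked by gene) of the receptor kinases, neuropilins and ligands in each library. The neuropilin sum is 46.2 to 48.3 in the controls and 144 to 155 in the knockouts, although control 2 splits it differently between Nrp1 and Nrp2.

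Sums per kilobase show how the parts of the family shifted within a library. The 3 receptor kinases summed to 144, 91.9 and 140.3 CPM per kb in controls 1, 2 and 3 and to 45.8, 43.5 and 50.2 in the knockouts, while the 2 neuropilins went from 46.3, 46.2 and 48.3 to 144, 146 and 155. The neuropilin sum was nearly the same in all controls, with Nrp1 making up 57.9% of it in control 2 and 19.9% and 23.0% in controls 1 and 3. Ligand transcripts, Vegfd left out, summed to 341, 203 and 353 CPM per kb in the controls and 150.2, 146 and 148 in the knockouts. Pgf made up 92.5%, 46.1% and 92.2% of the control sums and 34.2%, 33.9% and 43.7% of the knockout sums. Vegfc made up 0.316%, 1.13% and 0.387% in the controls and 17.9%, 20.4% and 15.5% in the knockouts.

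Ratios of 2 transcripts within a library do not depend on how libraries are scaled, and 8 such ratios of length-scaled counts were compared. Nrp1 stood at 0.106, 0.567 and 0.135 of Kdr in the controls and at 1.99, 1.95 and 1.68 of Kdr in the knockouts, so the order of the 2 transcripts was reversed in all 3 knockouts. The difference was 3.22 on the log2 scale, and 3.97 without control 2. Vegfc to Vegfa differed by 3.39 (log2), from 0.0667, 0.0232 and 0.0777 in the controls to 0.46, 0.603 and 0.501 in the knockouts. The Flt4 to Kdr ratio differed by -0.24 and the ratio of summed ligands to the 3 receptor kinases by 0.44 (log2), each without overlap. Exact two-sided permutation tests gave p = 0.1 for these 4, the smallest that 3 against 3 libraries allow, and 0.2 after adjustment over the 8 ratios. Flt1 to Kdr (difference 0.22), Nrp2 to Nrp1 (-0.10), Pgf to Vegfa (-2.69) and Vegfb to Vegfa (0.14) overlapped between the groups, with exact permutation p of 0.3 to 1.0. For Pgf to Vegfa the overlap came from control 2, whose ratio was 0.946 against 19.3 and 18.4 in controls 1 and 3 and 0.881 to 1.42 in the knockouts. Without control 2 the differences were 0.58 for Flt1 to Kdr, -0.88 for Nrp2 to Nrp1, -4.13 for Pgf to Vegfa and -0.72 for Vegfb to Vegfa.

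Control 2 was set against controls 1 and 3 gene by gene. On the log2 scale it was higher by 2.54 for Vegfa, 1.40 for Nrp1, 0.91 for Vegfc and 0.25 for Flt1, and its values were -0.05 for Vegfb, -0.84 for Kdr, -0.93 for Nrp2, -1.07 for Flt4 and -1.77 for Pgf. The knockouts against the same 2 controls had the same sign for Vegfa, Nrp1, Vegfc, Kdr, Flt4 and Pgf, and the opposite sign for Nrp2, Flt1 and Vegfb. For Vegfa the knockout value (1.59) was the smaller of the pair, and for the other 5 genes of equal sign it was the larger. Both sets of differences share controls 1 and 3, so they are not independent.

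**Figure D4:**
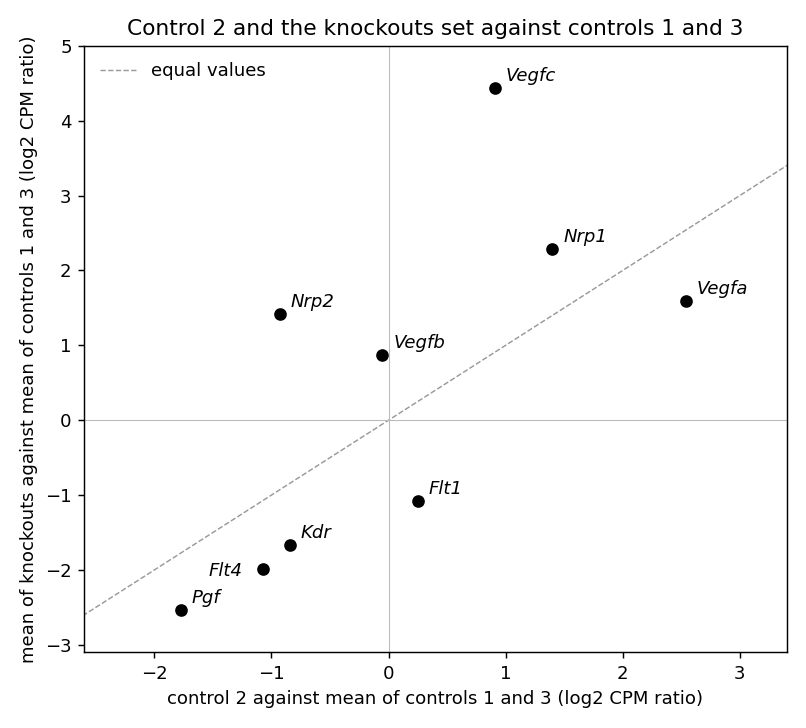
Log2 CPM ratio of control 2 (horizontal axis) and of the mean of the knockouts (vertical axis) to the mean of controls 1 and 3, 1 point per gene. Vegfa is the gene with the highest value on the horizontal axis (2.54, against 1.59 on the vertical axis), and Nrp2, Flt1 and Vegfb have opposite signs on the axes.

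Transcripts of proteins that work with the receptors at the membrane were called in both directions. Of 20 tested genes 3 were higher and 7 lower, beside 13.1% and 11.7% of all tested genes. Their median log2 fold change was -0.30 against 0.003 for all tested genes. The semaphorin receptor genes Plxna4 and Plxnd1, partners of neuropilins, fell. Plxna4 went from 132, 65.3 and 117 CPM in controls 1, 2 and 3 to 5.24, 5.41 and 9.47 CPM in the knockouts (log2 fold change -3.96, edgeR adjusted p = 0.00281), and Plxnd1 from 1473, 1029 and 1643 to 269, 254 and 366 CPM (-2.22, edgeR adjusted p = 0.00351). Cav1, encoding the caveolar coat protein caveolin 1, had 3554, 1021 and 3470.5 CPM in the controls and 758, 655 and 707 CPM in the knockouts (-1.92, edgeR adjusted p = 0.0357), a call lost without any 1 library other than control 2 (up to 0.131). The 3 genes that rose were Ptprj, a receptor phosphatase, Plxna1 and the endocytic adaptor Dab2, named after their values were seen, and the Plxna1 call was lost without control 3 or any 1 knockout library (edgeR adjusted p up to 0.0924). Dab2 went from 203, 248.8 and 188 CPM to 564, 570.2 and 605 CPM (1.44). Without control 2, 5 were called higher and 10 lower, beside 25.5% and 24.8% of all tested genes.

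Class 3 semaphorins, most of which are ligands of the neuropilins, were called in 4 of 7 cases, 2 higher and 2 lower. Of all tested genes 13.1% were higher and 11.7% lower. Without control 2 there were 3 calls in each direction, beside 25.5% higher and 24.8% lower of all tested genes. Sema3e, the ligand of plexin D1, rose from 31.3, 35.2 and 41.7 CPM in the controls to 188, 196 and 197 CPM in the knockouts (log2 fold change 2.42, edgeR adjusted p = 5.06e-04). Sema3d had 2.95, 25.2 and 3.62 CPM in the controls and 103, 136 and 112 CPM in the knockouts (3.46, edgeR adjusted p = 0.0399), and 5.12 without control 2. Sema3g fell from 182, 167 and 188 CPM to 24.3, 14.2 and 30.2 CPM (-2.97, edgeR adjusted p = 0.00265), and Sema3a, named after its values were seen, from a mean of 95.5 to 39.3 CPM, a call lost without knockout 1 or 3 (edgeR adjusted p up to 0.0632). Sema3c did not pass with all libraries (0.738, 37.7 and 1.97 CPM in the controls, 336, 495 and 375 CPM in the knockouts, edgeR adjusted p = 0.0614) but did without control 2 (log2 fold change 8.18). The Sema3d call was lost without any 1 library other than control 2 (edgeR adjusted p up to 0.121).

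The list of genes that process or release VEGF ligands also held the ligand gene Vegfd, and most were not called with all libraries. Of 13 tested of 15 listed, 2 were higher and 1 lower, a share near the 24.7% of all tested genes. Without control 2 these counts were 9 and 4, beside 50.3% of all tested genes. Ccbe1, whose product is needed to activate VEGF-C, fell from 31.3, 30.0035 and 37.8 CPM to 3.75, 3.57 and 3.73 CPM (log2 fold change -3.16, edgeR adjusted p = 4.23e-04), with 2.95% of its exons overlapped by an opposite-strand gene. Vegfc and Ccbe1 thus changed in opposite directions. Adamts3, the protease that acts with Ccbe1, had at most 0.163 CPM in any library. Plau, encoding urokinase, rose from 410.05, 505 and 464 CPM to 886, 953 and 868 CPM (0.97, edgeR adjusted p = 0.00352). Mmp9 was the other gene called higher, from a mean of 0.505 to 5.94 CPM (log2 fold change 3.54, and 4.55 without control 2), and was not called without any 1 library other than control 2 (edgeR adjusted p up to 0.0737). Vegfd, the second ligand of VEGFR3, had 1.58, 11.7 and 1.75 CPM in the controls and 4.16, 5.08 and 2.67 CPM in the knockouts (log2 fold change -0.33, edgeR adjusted p = 0.802). Leaving out control 2 turned the Vegfd value to 1.21 and made it a call (edgeR adjusted p = 0.0157).

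Inside the cell, the signalling genes downstream of VEGF receptors had 8 higher and 10 lower of 40 tested (42 listed). Of all tested genes 13.1% were higher and 11.7% lower. The median log2 fold change of the list was -0.13. Nos3, encoding endothelial nitric oxide synthase, fell from 157, 103 and 152 CPM to 10.4, 10.5 and 17.9 CPM (log2 fold change -3.41, edgeR adjusted p = 0.00208), but 32.3% of its exon bases overlap opposite-strand genes including Atg9b, so its counts are uncertain. Pla2g4a, encoding a cytosolic phospholipase A2, rose from 32.1, 98.9 and 40.1 CPM to 333, 377 and 324 CPM (2.60, edgeR adjusted p = 0.0129, and 0.0558 without knockout 2), and 3.22 without control 2. Shc1, an adaptor gene, rose from 164, 243 and 163 CPM to 400.3, 407 and 391 CPM (1.07, edgeR adjusted p = 0.0101). Plcg1, the phospholipase that VEGFR2 recruits directly, fell from 334, 206 and 329 CPM to 156, 147 and 166 CPM (-0.89, edgeR adjusted p = 0.026, up to 0.108 without any 1 library other than control 2). It lies outside the naming rule and was chosen after its values were seen. Without control 2, 12 were higher and 18 lower, beside 25.5% and 24.8% of all tested genes.

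Genes known to respond to VEGF had 3 higher and 8 lower of 23 tested, beside 13.1% and 11.7% of all tested genes. Their median log2 fold change was -0.55. Apln, encoding the tip-cell peptide apelin, fell from 6737, 1244 and 6928 CPM to 190.4, 249.6 and 513 CPM (log2 fold change -3.97, edgeR adjusted p = 0.0193). Fos, an early-response transcription factor gene, rose from 10.01, 40.4 and 11.5 CPM to 183, 166 and 151 CPM (3.01, edgeR adjusted p = 0.0178, and 3.92 without control 2). Ptgs2, encoding cyclooxygenase 2, rose from 311, 934 and 410.5 CPM to 2049.99, 2274 and 1958 CPM (1.92, edgeR adjusted p = 0.0266, and 2.50 without control 2). Junb also rose, and Rcan1, Dusp5 and Plaur were among the genes that fell, with log2 fold changes of -0.90, -1.17 and -0.79. Opposite-strand genes overlap 22.1% of the exon bases of Dusp5 and 7.52% of those of Junb. Without control 2, 9 were higher and 9 lower, beside 25.5% and 24.8% of all tested genes, and the median of the list was 0.11. Apln, Ptgs2 and Junb lost their calls without any 1 library other than control 2 (edgeR adjusted p up to 0.0916, 0.0936 and 0.102), and Fos without control 3 or any 1 knockout library (up to 0.0661). Junb, Rcan1, Dusp5 and Plaur were named after their values were seen.

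The hypoxia axis, which controls Vegfa transcription in many tissues, had 7 higher and 2 lower of 18 tested (20 listed). The shares of all tested genes were 13.1% and 11.7%, and the median log2 fold change of the axis was 0.37. Egln3, encoding an oxygen-sensing prolyl hydroxylase, rose from 97.6, 73.3 and 112 CPM to 528, 448 and 445 CPM (log2 fold change 2.33, edgeR adjusted p = 0.00163). Hif1a rose from 342, 440.2 and 351 CPM to 833, 828 and 805 CPM (1.12, edgeR adjusted p = 0.00342). The 2 lower genes were Ankrd37 and Ndrg1. Ndrg1, named after its values were seen, was not called without any 1 library other than control 2 (edgeR adjusted p up to 0.0634). Ankrd37 fell from 17.4, 10.9 and 16.4 CPM to 3.34, 3.46 and 3.73 CPM (-2.09, edgeR adjusted p = 0.00302), and 26.4% of its exon bases overlap opposite-strand genes. Without control 2, 10 were higher and 2 lower, beside 25.5% and 24.8% of all tested genes.

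Receptors of other growth factors gave 3 higher and 7 lower of 19 tested (21 listed), beside 13.1% and 11.7% of all tested genes. These counts were 5 and 9 without control 2, beside 25.5% and 24.8% of all tested genes. Kit, the stem cell factor receptor gene, fell from 303, 161 and 309.6 CPM to 38.3, 36.2 and 56.9 CPM (log2 fold change -2.56, edgeR adjusted p = 0.00537). Tie1 fell from 854, 439.7 and 857 CPM to 134, 136 and 182 CPM (-2.25, edgeR adjusted p = 0.00627). Tek, the angiopoietin receptor gene, fell from 114, 116 and 118 CPM to 22.3, 24.7 and 32.8 CPM (-2.12, edgeR adjusted p = 0.00145), and its control 2 level lay between those of controls 1 and 3. The 3 that rose were Pdgfra, Igf1r and Tgfbr1, named after their values were seen. The Tgfbr1 call was lost without any 1 library other than control 2 (edgeR adjusted p up to 0.0941). Tek, Tie1, Eng, Pdgfra, Pdgfrb and Csf1r of this list are also in the cell type marker lists. Cdh5 is in both the list of receptor partners and the endothelial markers, so counts of these lists are not independent.

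**Figure D5:**
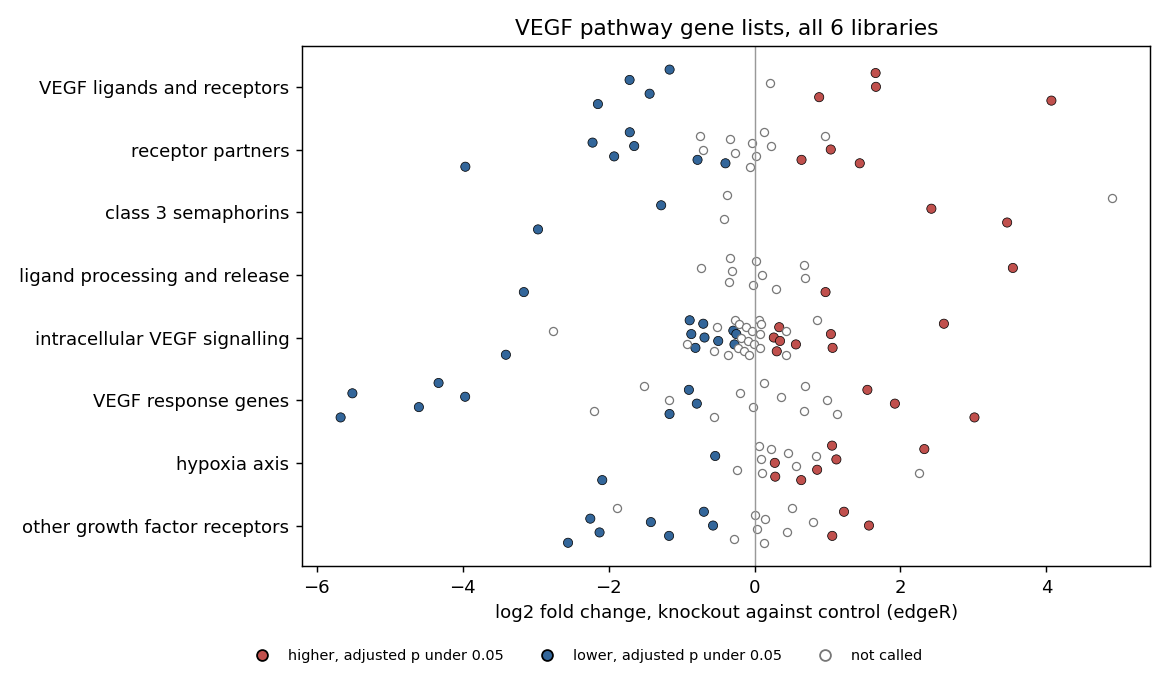
Log2 fold change (horizontal axis) of every tested gene of the VEGF family and of 7 related lists, 1 point per gene, filled where called (red higher, blue lower) and open where not. The family has 4 filled points on each side of 0, and the hypoxia axis 7 on the right and 2 on the left. Of all tested genes, 13.1% were called higher and 11.7% lower.

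For each called member, the genes whose profile over the 6 libraries lay closest were found by the root mean square difference of centred log2(CPM + 1) values. Dennd3 and Gmpr were nearest to Kdr, at differences of 0.031 and 0.039, and H60b and Cdh5 to Flt4, at 0.063 and 0.066. Flt1 had Zfp703 and Zfp827 (0.097 and 0.105), Pgf had Cav2 and Emcn (0.108 and 0.112), and Nrp1 had Psd3 and Frrs1 (0.092 and 0.1). Gas6 and Gata2 were nearest to Nrp2 (0.087 and 0.094), and E2f7 and Orc6 to Vegfb (0.046 and 0.048). Vegfc had no neighbour as close, with Lama1 at 0.143 and Plscr1 at 0.211. With 2 groups in 6 libraries, these distances depend on the group difference and the position of control 2 and describe likeness of level only.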

How the data were processed

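Polyadenylated RNA libraries were made with an unstranded or a stranded TruSeq kit (which library had which is not recorded), per the labels' protocols. Raw counts per Ensembl gene were deposited by the authors as whole numbers and used as such. FastQC 0.11.5, STAR 2.7.6a and GRCm38 are named in the submitters' processing notes; the counting program and its strand setting were not given in the sources used here. GENCODE M21 matched 52489 of 52636 identifiers and gave symbols, positions and exon lengths. At most 0.619% of the 50-base sequences of a member occur in other genes, and its exons overlap no opposite-strand gene. The table held 0 rows without a gene and 0 columns of other samples.

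Groups and replicate numbers came from the titles. In R 4.3.3, edgeR 4.0.16 (filterByExpr, TMM, glmQLFit, glmQLFTest, two-sided) was fitted to all 6 libraries without covariates, and the procedure was tested on simulated counts. SE is the log2 fold change divided by the square root of F. Ratios added 0.5 to each count (1 as an alternative). Alternatives were RLE, upper-quartile and no scaling, DESeq2 1.42.0, limma 3.58.1 voom, no or a stricter filter (1 CPM in 3 libraries), a replicate block, a sex term, an adjusted p under 0.01, a test against 1.5-fold, and leaving out each library.

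The members and the lists were chosen with earlier results of these data known. Named were the members, Erg, Fli1, up to 3 called genes per list with the largest absolute log2 fold change and at least 5 CPM (leaving out Esm1, Dll4, Kcne3, Cxcr4 and Cdh5), the most abundant gene of each marker list, and the 2 nearest profiles per called member. Every marker list is given by its sum over genes.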

Additional observations from a re-analysis of the deposited data

How the results depend on the processing

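The 8 members called with all libraries were also the 8 called with RLE, upper-quartile or library-size scaling, DESeq2, limma voom, no filter and a stricter filter. At an adjusted p under 0.01, 4 members were called (1 lower), and 1256 of all genes (732 higher, 524 lower). Against a 1.5-fold change, 4 members were called (2 higher, 2 lower), and 982 of all genes (540 higher, 442 lower). With a term for sex 7 members were called, without Pgf, and 2623 of all genes (1486 higher, 1137 lower). Leaving out 1 library gave 4 to 9 members called (3 to 5 higher, 1 to 4 lower) and 1351 to 7128 of all genes (803 to 3617 higher, 548 to 3511 lower); control 2 gave the highest counts and knockout 2 the lowest of all genes. The replicate numbers were not taken to pair the libraries, since the labels do not say that they mark an animal or culture. Deviations from the group means correlated at -0.19, 0.19 and 0.32 between same-numbered libraries. Between differently numbered ones the correlations ran from -0.38 to 0.38. With 3 libraries per group these values cannot decide on pairing. Control 3 was male and knockout 3 female, while the libraries numbered 1 and those numbered 2 matched in sex. With the replicate block, 1844 of all genes were called (1038 higher, 806 lower) and 7 members, Pgf being the exception (edgeR adjusted p = 0.0555).

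The Vegfa log2 fold change was -0.19 without control 1 and -0.17 without control 3 (range -0.19 to 1.56), and that of Acta2, a mural cell marker, went from -0.76 to 0.83 without control 2 (range -1.19 to 0.83). The difference in the Flt1 to Kdr ratio was -0.019 without knockout 1 (range -0.019 to 0.58 over single libraries left out), that of Nrp2 to Nrp1 0.35 without control 1 and 0.22 without control 3 (range -0.88 to 0.35), and that of Vegfb to Vegfa -0.72 without control 2 (range -0.72 to 0.60). The causes were not tested. The other 5 ratios kept their sign. Among the 9 members, Vegfc in the controls had the lowest counts, at 50 to 103 counts per library.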
